A study of Mus musculus with 8 samples.

Results

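Conjugating enzymes attach glucuronic acid, sulfate or glutathione to drugs, plant compounds, bile pigments, steroids and reactive lipids, and carboxylesterases cut the ester bonds of drugs and fats. The genes of these enzymes were taken by mouse symbol: those beginning with Ugt1, Ugt2 or Ugt3 (UDP-glucuronosyltransferases), Sult (cytosolic sulfotransferases), Gsta, Gstk, Gstm, Gsto, Gstp, Gstt or Gstz (soluble glutathione transferases), Mgst (membrane-bound glutathione transferases) or Ces (carboxylesterases). Of 23318 genes in the files, 69 carried such a symbol, 1 of them a pseudogene that was left out. Of the remaining 68 candidates, 52 reached a value of 10 or more in at least 4 of the 8 libraries and are called the members here.

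RNA came from mouse small intestinal epithelium sorted by flow cytometry on CD24, a surface glycoprotein, into a CD24Neg and a CD24Mid fraction. In both fractions, cells positive for the leukocyte antigen CD45 or bound by the lectin UEA of Ulex europaeus had been depleted. Each fraction had 4 libraries, described by the submitters as biological replicates: CD24Neg libraries 2, 4, 6 and 8, and CD24Mid libraries 1, 3, 5 and 7. Values below follow that library order. The labels used here give no strain, genotype, age or sex, and no label ties a CD24Neg library to a CD24Mid library. All values are normalised expression values per gene, scaled between libraries by the authors and not divided by gene length, so levels of different genes are compared only per kilobase of transcript. A gene was called where the limma fit over 12906 genes gave a Benjamini-Hochberg adjusted p under 0.05, and a log2 fold change is CD24Neg minus CD24Mid of log2(value + 0.5), with 4 libraries a fraction.

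Absorptive cells of the small intestine meet food-borne chemicals first and carry much of the body's conjugating capacity outside the liver. Glucuronidation takes place inside the endoplasmic reticulum, sulfation and most glutathione transfer take place in the cytosol, and the conjugates leave through ATP-driven pumps. Intestinal carboxylesterases sit in the endoplasmic reticulum and hydrolyse prodrugs and acylglycerols.

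As a check of the labels, the summed values of 8 enterocyte markers were 419289 to 758144 in CD24Neg and 16640.2 to 28506 in CD24Mid, and those of 6 stem and cycling cell markers were 1959.6 to 6861 in CD24Neg and 52997 to 75159 in CD24Mid. The 7 general epithelial markers were present in every library. Markers of goblet, T, B and plasma and enteroendocrine cells and the mitochondrially encoded share moved with the fraction as well. The 6 goblet cell markers summed to 182069 to 504558 in CD24Neg and 47556 to 74600.4 in CD24Mid, and the mitochondrially encoded share of the values was 28.3 to 37.4% in CD24Neg and 8.03 to 9.10% in CD24Mid. The 6 T cell markers summed to 384 to 6794 in CD24Neg and 47.97 to 163 in CD24Mid, while the 5 B and plasma cell markers summed to 202 to 420.4 in CD24Neg and 2951 to 7611 in CD24Mid. The 6 enteroendocrine markers summed to 1103 to 1544 in CD24Neg and 3515 to 7888 in CD24Mid. Within these lists, the goblet marker Spdef at 0.20 (limma adjusted p = 0.473), the enteroendocrine markers Cck and Sct and the B cell marker Ighm were not called. All 6 fibroblast and muscle markers lay under the filter. The part of any of these in the results below was not tested. In these bulk samples, fewer cells of a type and less RNA per cell cannot be told apart. Read numbers estimated from the steps of the lowest values came to 12.5 to 20.6 M in CD24Neg libraries and 17.4 to 19.6 M in CD24Mid libraries, so a value of 10 stood for 5.62 to 9.30 reads in CD24Neg and 14.3 to 17.1 reads in CD24Mid.

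Before the values, the sequences show how alike some members are, since reads from stretches shared between genes have to be divided by the estimation. The 9 Ugt1a genes on chromosome 1 each have their own first exon and share the exons after it: in GENCODE M21 (build GRCm38, plus strand) the last 737 bases of the coding sequence were the same in all 9. The 5 members are shown over the last 30 bases of their own part, in lower case, and the first 30 shared bases, in capitals.
Ugt1a1: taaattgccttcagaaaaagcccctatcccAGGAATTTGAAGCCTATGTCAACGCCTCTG
Ugt1a5: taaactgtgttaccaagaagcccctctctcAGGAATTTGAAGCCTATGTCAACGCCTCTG
Ugt1a6a: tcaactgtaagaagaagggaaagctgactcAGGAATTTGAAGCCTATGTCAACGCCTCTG
Ugt1a7c: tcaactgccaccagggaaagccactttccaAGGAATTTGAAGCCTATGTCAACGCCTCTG
Ugt1a9: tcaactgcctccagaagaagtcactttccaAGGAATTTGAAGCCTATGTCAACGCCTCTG
Only the lower-case side tells these genes apart. The share of 50-base stretches of a gene's protein-coding transcripts that occurred in no other gene's transcripts was 45.8% for Ugt1a7c, 41.8% for Ugt1a1, 37.97% for Ugt1a9, 36.03% for Ugt1a5 and 4.02% for Ugt1a6a. The last is low because M21 also lists a transcript with the first exon of Ugt1a6a under Ugt1a7c.

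The pi class pair on chromosome 19 is closer still. Gstp1 and Gstp2 have coding sequences of 630 bases that differed at 12 places, an identity of 98.1%, whereas Gstp1 and Gstp3 differed at 179. The first 120 coding bases (GENCODE M21, build GRCm38) hold 6 of the 12 differences, in capitals.
Gstp1: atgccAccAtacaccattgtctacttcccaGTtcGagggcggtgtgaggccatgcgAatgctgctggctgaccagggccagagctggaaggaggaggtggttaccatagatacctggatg
Gstp2: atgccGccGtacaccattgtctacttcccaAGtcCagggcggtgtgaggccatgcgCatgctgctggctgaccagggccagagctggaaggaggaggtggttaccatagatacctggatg
Among the 52 members, 30 had over 95% of their stretches to themselves, 16 of these all of them, and 11 had under 60%. Besides the 5 Ugt1a members and the Gstp pair, the genes under 60% were Gsta1 (10.3%), Gsta2 (52.6%), Ces2c (57.8%) and Ugt2b5 (58.3%), and their single values are uncertain to that extent. For Gsta1 the stretches were shared mostly with the predicted gene Gm3776, for Ces2c with the pseudogene Ces2d-ps, and for Ugt2b5 with Ugt2b38.

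Most of these genes were higher in CD24Neg. Of the 52 members, 38 were called higher, 1 was called lower and 13 were not called. Over all 12906 genes tested, 34% were called higher and 34.3% lower, 68.3% in either direction. All 4 CD24Neg libraries lay above all 4 CD24Mid libraries for 37 members and below for 1, against 31.8% (above) and 32.1% (below) of all genes, 63.8% either way. The median log2 fold change was 1.69 over the members and -0.02 over all genes, and 21 members were called more than 4-fold higher, as were 8% of all genes. Ces2h and Gsta2 passed the low-value filter through CD24Neg alone and so had to differ; among the other 50 members, 36 were higher and 1 lower. Scaling on library totals, with the 20 most abundant genes kept out of the total, shifted the median of all genes by -0.42; 36 members were then called higher and 3 lower (Gstm5, Sult1a1 and Gstz1), while all genes were called higher in 22% and lower in 50.3%, 72.4% either way.

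Summed over the 68 candidates, these transcripts came to 140191 ± 29810.2 in CD24Neg, against 37971 ± 6204 in CD24Mid (SD, n = 4 each), 3.69 times as high. They made up 0.943 ± 0.167% of the values outside mitochondrially encoded genes in CD24Neg and 0.354 ± 0.0487% in CD24Mid (SD, n = 4 each).

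**Figure D1:**
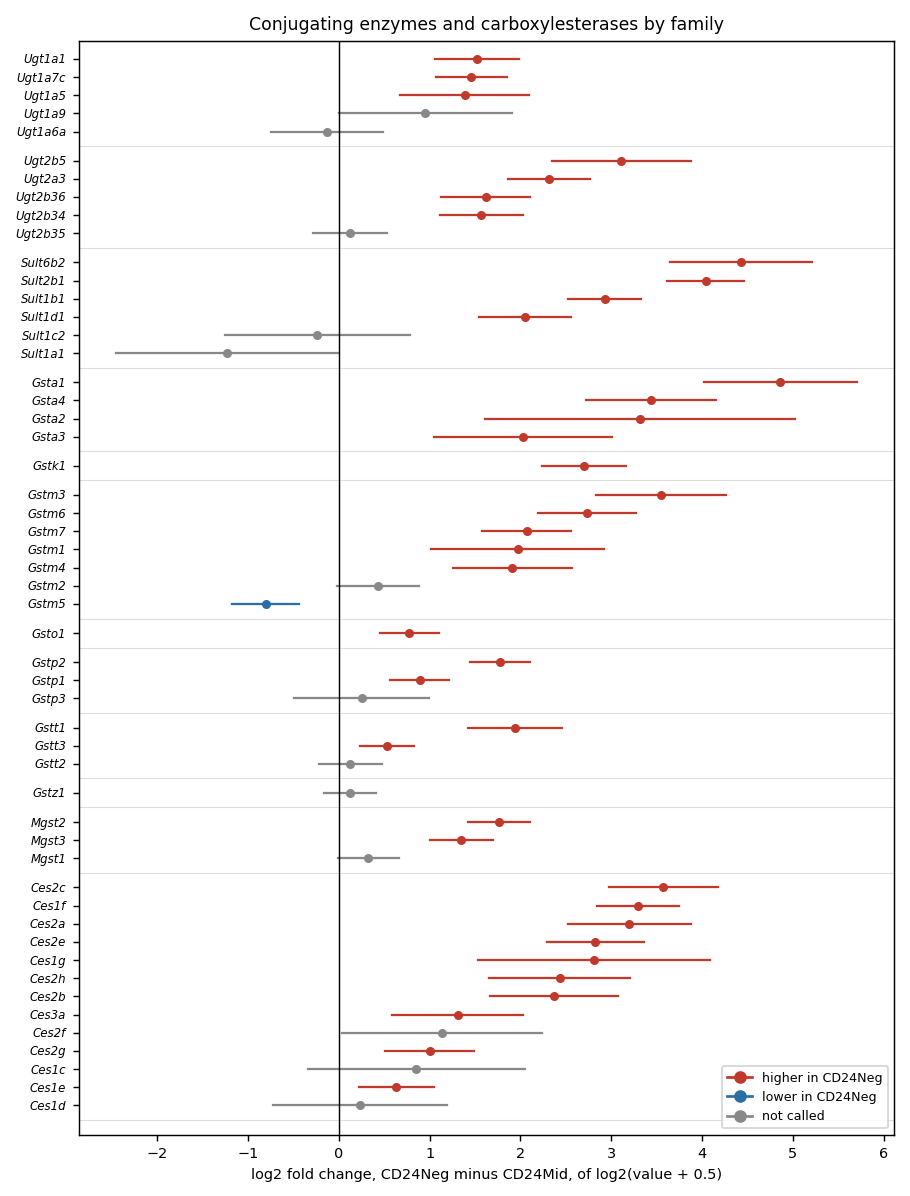
Log2 fold change (CD24Neg minus CD24Mid, x axis) of each of the 52 members, grouped by family from Ugt1 at the top to Ces at the bottom. Points are limma estimates from 4 libraries a fraction, lines are 95% intervals, and colour gives the call; Gsta1 lies farthest to the right at 4.86 and Gstm5 is the 1 member called lower.

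Among the UDP-glucuronosyltransferases, 7 of the 10 members were called higher, none was called lower and 3 were not called. The Ugt1 family summed to 15962 ± 3559 in CD24Neg, against 5916 ± 1167 in CD24Mid (SD, n = 4 each), 2.70 times as high. Ugt1a1, the enzyme that conjugates bilirubin, had 7902, 9259, 10932 and 6314 in CD24Neg, against 3929, 2472, 3288 and 2354 in CD24Mid. Every CD24Neg library was above every CD24Mid library, and the log2 fold change was 1.52 ± 0.21 (SE, limma adjusted p = 9.97e-05). Ugt1a7c had 5752, 8059, 7892 and 5229 in CD24Neg, against 2919, 1953, 2457 and 2389.99 in CD24Mid. It too was separated without overlap, at 1.46 ± 0.17 (SE, limma adjusted p = 3.98e-05). Per kilobase these were the chief Ugt1 transcripts in both fractions, with Ugt1a1 at 62.5% in CD24Neg and 58.9% in CD24Mid of the family and Ugt1a7c at 32.96% in CD24Neg and 32.00% in CD24Mid.

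The third Ugt1 gene called higher, Ugt1a5, was near the filter, with 26.3, 21.7, 23.5 and 21.3 in CD24Neg, against 11.5, 6.39, 6.99 and 10.2 in CD24Mid and a log2 fold change of 1.39 ± 0.32 (SE, limma adjusted p = 0.00298). Ugt1a6a, whose human counterpart conjugates small phenols, was not called: it had 264, 472, 371 and 178 in CD24Neg, against 359.9, 322, 406 and 254 in CD24Mid, overlapping ranges, at -0.13 (95% interval -0.75 to 0.48, limma adjusted p = 0.685). Ugt1a9 had 166, 525, 193 and 132 in CD24Neg, against 159, 118, 135 and 62.04 in CD24Mid. The ranges overlapped, CD24Neg library 4 stood above the rest, and a log2 fold change of 0.95 (95% interval -0.00 to 1.90, limma adjusted p = 0.071) was not called. It was called higher after quantile normalization (1.14, limma adjusted p = 0.0274), without CD24Neg library 8 (1.1962, limma adjusted p = 0.038) and without CD24Neg libraries 2 and 8 (1.53, limma adjusted p = 0.0175). Ugt1a2, Ugt1a6b, Ugt1a8 and Ugt1a10 lay under the filter.

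The Ugt2 family, whose enzymes conjugate steroids, bile acids and fatty acids, summed to 15465 ± 4089 in CD24Neg, against 5198 ± 614 in CD24Mid (SD, n = 4 each), 2.97 times as high. Ugt2b5 had the largest difference of the family, with 639, 1233, 606 and 374 in CD24Neg, against 118, 65.98, 72.3 and 55.9 in CD24Mid, at 3.11 ± 0.34 (SE, limma adjusted p = 2.29e-05). Ugt2a3 had 1789, 2439.9, 2782 and 1637 in CD24Neg, against 560.4, 379.8, 452 and 334 in CD24Mid, at 2.32 ± 0.20 (SE, limma adjusted p = 4.89e-06). For both genes the lowest CD24Neg library was far above the highest CD24Mid library. Ugt2b34, the most abundant Ugt2 transcript per kilobase, had 7996, 13198, 14709 and 9515 in CD24Neg, against 3618, 2965, 4264 and 4149.6 in CD24Mid. Its ranges did not overlap and the log2 fold change was 1.57 ± 0.20 (SE, limma adjusted p = 7.01e-05), with 58.96% in CD24Neg and 61.6% in CD24Mid of the family sum per kilobase. Ugt2b36 was lower in level, at 185 to 309.7 in CD24Neg, against 53.02 to 88.7 in CD24Mid, and was also called higher at 1.62 ± 0.22 (SE, limma adjusted p = 9.39e-05).

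The fifth member, Ugt2b35, was not separated between the fractions. Ugt2b35 had 837, 1399.7, 965 and 697 in CD24Neg, against 846, 862, 925 and 826 in CD24Mid, and at 0.12 (95% interval -0.29 to 0.54, limma adjusted p = 0.564) it was not called. Its share of the Ugt2 sum per kilobase was 5.24 to 7.59% in CD24Neg libraries, against 17.2 to 21.4% in CD24Mid libraries. The CD24Mid libraries were close to one another for this gene, while CD24Neg library 4 was high. Leaving out CD24Neg libraries 2 and 8 gave 0.45 (limma adjusted p = 0.0333). Ugt2a2, Ugt2b1, Ugt2b37, Ugt2b38 and the single Ugt3 candidate, Ugt3a1, lay under the filter; that made 5 candidates of these families. Ugt2b38, named after its values were seen, had 24.9, 58.7, 22.3 and 5.17 in CD24Neg, while all 4 CD24Mid libraries were below 0.0001.

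Among the sulfotransferases, which transfer the sulfonate group of the donor PAPS to hydroxyl groups, 4 of 6 members were called higher and 2 were not called. The family summed to 15206 ± 3688 in CD24Neg, against 2436 ± 453 in CD24Mid (SD, n = 4 each), 6.24 times as high. Sult6b2 had 808, 1161, 513 and 501 in CD24Neg, against 54.3, 26.8, 19.5 and 37.4 in CD24Mid, at 4.43 ± 0.35 (SE, limma adjusted p = 2.58e-06), or 21.5-fold. Sult2b1, which sulfates cholesterol and related steroids, had 2185, 2191, 2631 and 2109 in CD24Neg, against 212, 113, 119 and 125 in CD24Mid. This was 16.4-fold, at 4.04 ± 0.19 (SE, limma adjusted p = 2.39e-07), and its CD24Neg libraries lay within a coefficient of variation of 10.4%.

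Sult1b1, known for sulfating thyroid hormones and phenols, had 5429.7, 5849.9, 8607 and 5400.3 in CD24Neg, against 1025, 674, 873 and 731 in CD24Mid, at 2.93 ± 0.18 (SE, limma adjusted p = 6.41e-07). Sult1d1, a sulfotransferase of catecholamines in the mouse, had 4568, 5656, 8702 and 4308 in CD24Neg, against 1522, 1169, 1689 and 1091 in CD24Mid, at 2.05 ± 0.23 (SE, limma adjusted p = 2.42e-05). In both genes CD24Neg library 6 was the highest by a wide gap, and neither overlapped between fractions. Within the family per kilobase, Sult1d1 held 36.5% in CD24Neg and 55.4% in CD24Mid, Sult1b1 36.8% in CD24Neg and 31.00% in CD24Mid and Sult2b1 18.6% in CD24Neg and 7.51% in CD24Mid.

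The other two sulfotransferase members were low and not called. Sult1a1, the phenol sulfotransferase, had 19.1, 3.12, 7.47 and 5.77 in CD24Neg, against 28.3, 16.4, 20.4 and 10.2 in CD24Mid, with ranges that overlapped through CD24Neg library 2, at -1.23 (95% interval -2.45 to -0.01, limma adjusted p = 0.0675). Without that library it was called lower, at -1.67 (limma adjusted p = 0.0113). Sult1c2 had 35.3, 84.5, 20.03 and 20.1 in CD24Neg, against 41.6, 58.9, 33.7 and 28.6 in CD24Mid, at -0.24 (95% interval -1.26 to 0.78, limma adjusted p = 0.661). Sult4a1 and Sult6b1 lay under the filter. Sult4a1 was at 0 in every CD24Neg library, against 3.03, 3.95, 3.19 and 1.81 in CD24Mid.

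**Figure D2:**
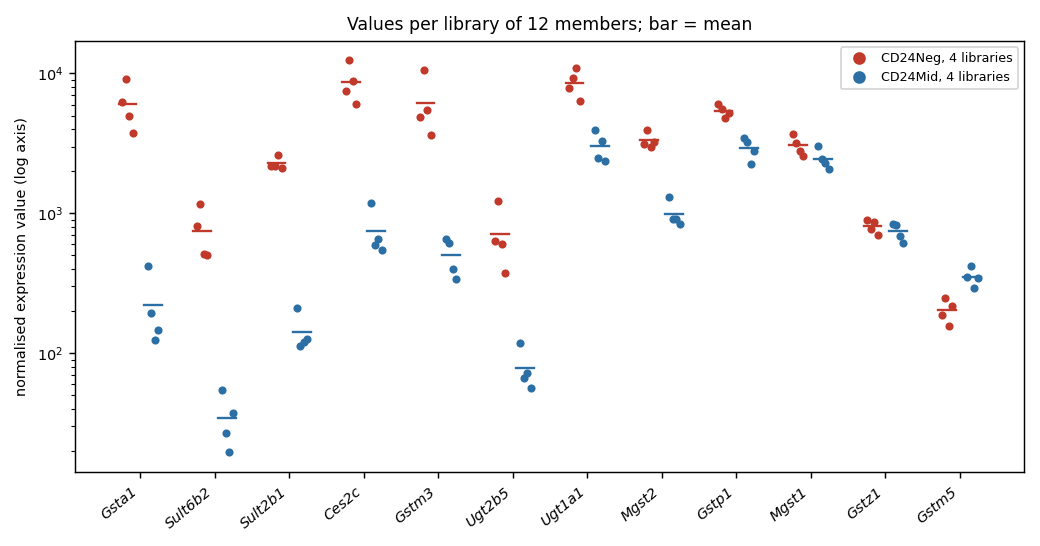
Normalised expression value (log axis) of 12 members in each of the 4 CD24Neg libraries, left, and the 4 CD24Mid libraries, right, of each pair; the bar is the mean. Gsta1, Sult6b2, Sult2b1, Ces2c and Gstm3 are separated by more than an order of magnitude in means. Mgst1 and Gstz1 overlap, and Gstm5 is below in CD24Neg.

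The alpha class glutathione transferases held the largest difference of all the members. All 4 were called higher, and the family summed to 8291 ± 3276 in CD24Neg, against 440.1 ± 222 in CD24Mid (SD, n = 4 each), 18.8 times as high. Gsta1 had 6228, 9202, 4946 and 3739 in CD24Neg, against 420.3, 193, 123 and 147 in CD24Mid. The log2 fold change was 4.86 ± 0.38 (SE, limma adjusted p = 2.37e-06), or 29.1-fold. Gsta1 took 75.1% in CD24Neg and 53.6% in CD24Mid of the alpha sum per kilobase. Since 82.9% of its stretches are shared with Gm3776, which is not in the sum, the Gsta1 values depend on how reads were divided. The same holds for the alpha sum and its ratio. Gsta4, which conjugates the lipid peroxidation product 4-hydroxynonenal, had 2195, 3288, 1822 and 1277 in CD24Neg, against 310.2, 202, 148 and 129.6 in CD24Mid, at 3.44 ± 0.32 (SE, limma adjusted p = 7.09e-06). Its whole transcript is distinct from other genes, and all its CD24Neg libraries were above all its CD24Mid libraries.

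Gsta3 was lower in level, with 66.9, 184, 48.6 and 63.9 in CD24Neg, against 24.98, 25.4, 10.6 and 18.9 in CD24Mid, at 2.03 ± 0.44 (SE, limma adjusted p = 0.00208); CD24Neg library 4 was the high one. Gsta2 was low, with 14.9, 64.6, 12.9 and 11.95 in CD24Neg, against 3.73, 2.50, 1.88 and 0.0562 in CD24Mid. It passed the filter through CD24Neg alone, its values are few reads each in CD24Mid, and the log2 fold change of 3.32 ± 0.77 (SE, limma adjusted p = 0.00314) moved between 2.69 and 3.92 over the 19 alternatives.

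In the mu class 5 of 7 members were called higher, 1 lower and 1 was not called. The class summed to 10924 ± 5639 in CD24Neg, against 2029 ± 487 in CD24Mid (SD, n = 4 each), 5.38 times as high. Gstm3 had 4877, 10586, 5504 and 3643 in CD24Neg, against 657, 615, 399.9 and 341 in CD24Mid, at 3.55 ± 0.32 (SE, limma adjusted p = 5.83e-06), or 11.7-fold. Gstm6 had 888, 1398, 989 and 626 in CD24Neg, against 164, 179, 122 and 109 in CD24Mid, at 2.73 ± 0.24 (SE, limma adjusted p = 5.35e-06). Neither gene's ranges overlapped between fractions. Gstm7, Gstm1 and Gstm4 were called higher by 2.07 (limma adjusted p = 1.77e-05), 1.97 (limma adjusted p = 0.00214) and 1.91 (limma adjusted p = 0.000223). Of these, Gstm1 varied most in CD24Neg, with 1641, 4982, 1398 and 1076 in CD24Neg, against 552, 694, 403 and 339 in CD24Mid, CD24Neg library 4 standing apart.

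Gstm5 was the 1 member called lower in CD24Neg. It had 188, 249, 157 and 218 in CD24Neg, against 353, 420.2, 294 and 343 in CD24Mid, so that every CD24Neg library was below every CD24Mid library, at -0.80 ± 0.17 (SE, limma adjusted p = 0.00158). The call was lost against a fold change of 1.5 (limma adjusted p = 0.237). Gstm2 was not called, with 443, 568, 359 and 347 in CD24Neg, against 361, 399, 277 and 237 in CD24Mid, at 0.43 (95% interval -0.02 to 0.89, limma adjusted p = 0.0842). It was called higher without CD24Mid library 3 (0.54, limma adjusted p = 0.045). Each CD24Neg library was above the CD24Mid library of the preceding number for Gstm2, but no paired fit was run. The make-up of the class per kilobase differed accordingly: Gstm3 made up 53.98 to 58.9% in CD24Neg libraries, against 19.8 to 25.8% in CD24Mid libraries, Gstm5 1.77 to 4.54% in CD24Neg libraries, against 19.2 to 27.6% in CD24Mid libraries and Gstm2 3.60 to 6.42% in CD24Neg libraries, against 16.9 to 18.4% in CD24Mid libraries. All 7 genes lie side by side on chromosome 3 of GRCm38, in the order Gstm5, Gstm7, Gstm6, Gstm3, Gstm2, Gstm1 and Gstm4, so the gene that was lower sits at one end beside Gstm7 (log2 fold change 2.07), and the gene not called lies between Gstm3 (3.55) and Gstm1 (1.97).

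Both a gene called higher, Gsta3, and the gene called lower, Gstm5, held the core of the antioxidant response element, TGACNNNGC, in the 250 bases before their RefSeq start, and for that reason these promoters are shown. The first is chr1:21240335-21240554 and the second chr3:107895604-107895823, both plus strand, RefSeq GRCm38.p6, from 250 to 31 bases before the start, with the motif in capitals.
Gsta3: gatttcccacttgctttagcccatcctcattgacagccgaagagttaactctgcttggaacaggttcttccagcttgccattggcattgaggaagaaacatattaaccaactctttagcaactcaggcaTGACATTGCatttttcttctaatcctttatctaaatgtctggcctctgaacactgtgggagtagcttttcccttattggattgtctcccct
Gstm5: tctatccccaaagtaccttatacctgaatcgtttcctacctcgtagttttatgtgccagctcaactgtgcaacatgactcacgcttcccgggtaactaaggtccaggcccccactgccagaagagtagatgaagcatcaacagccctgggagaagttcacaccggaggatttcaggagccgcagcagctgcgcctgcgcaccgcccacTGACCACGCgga
The motif began 121 bases before the start in Gsta3 and 42 bases before it in Gstm5. RefSeq promoter entries matched 46 of the 52 members with 56 promoters; Gsta4, Ces1f, Ces3a, Ces2b, Ces1d and Gstt2 had none. On both strands, TGACNNNGC was in 4 member promoters (7.14%) and in 10.2% of all 32851 promoters of that length, the xenobiotic response element GCGTG in 11 (19.6%) and 28.2%, and the Cdx motif TTTATNNC in 7 (12.5%) and 11.2%. The direct repeat bound by nuclear receptors was in 0 member promoters and in 0.0335% of all. The differences between these shares were not tested, and the shares describe these windows only.

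The remaining soluble classes differed less, apart from kappa. Gstk1, a mitochondrial and peroxisomal transferase, had 659, 1143, 986 and 657 in CD24Neg, against 151, 128, 137 and 101 in CD24Mid, at 2.70 ± 0.21 (SE, limma adjusted p = 2.03e-06). Gsto1, which reduces dehydroascorbate and mixed disulfides, had 7302, 7900.4, 7658 and 5687 in CD24Neg, against 4936, 4439, 3631 and 3678 in CD24Mid. Its ranges did not overlap and the difference was 0.78 ± 0.15 (SE, limma adjusted p = 0.000858), but it was not called after quantile normalization (0.27, limma adjusted p = 0.0731). Gstp1, the main pi class enzyme, had 6035, 5574, 4835 and 5175 in CD24Neg, against 3483, 3226, 2266 and 2810.1 in CD24Mid, at 0.89 ± 0.14 (SE, limma adjusted p = 0.000322).

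Its near copy Gstp2 had 1509, 1622, 1392 and 1104 in CD24Neg, against 475, 449, 343 and 369 in CD24Mid, at 1.78 ± 0.15 (SE, limma adjusted p = 3.57e-06). Gstp2 took 17.7 to 22.7% in CD24Neg libraries, against 11.6 to 13.2% in CD24Mid libraries of the pi sum per kilobase, without overlap. Since the pair is so alike, the sum of the class is the safer value, at 6905 ± 688 in CD24Neg, against 3436 ± 623 in CD24Mid (SD, n = 4 each), 2.01 times as high. Gstp3 was low and not called, with 137, 89.7, 59.4 and 88.7 in CD24Neg, against 136, 68.5, 51.03 and 67.7 in CD24Mid, at 0.25 (95% interval -0.49 to 0.99, limma adjusted p = 0.521).

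Of the theta class, Gstt1 had 904, 1513, 1229.8 and 761 in CD24Neg, against 323, 335, 274 and 197 in CD24Mid, at 1.94 ± 0.23 (SE, limma adjusted p = 4.12e-05). Its neighbour Gstt3 differed less, with 1025, 1107, 945 and 817 in CD24Neg, against 802, 712, 604 and 586 in CD24Mid, at 0.53 ± 0.13 (SE, limma adjusted p = 0.00519), and lost the call when libraries were scaled to totals (0.10, limma adjusted p = 0.477). Gstt2 was not called, with 582, 473, 435 and 454 in CD24Neg, against 537, 505, 405 and 347 in CD24Mid, at 0.13 (95% interval -0.22 to 0.48, limma adjusted p = 0.488). Gstt1 thus made up 50.5 to 63.2% in CD24Neg libraries, against 27.7 to 33.4% in CD24Mid libraries of the theta sum per kilobase. Gstz1, the maleylacetoacetate isomerase of tyrosine breakdown, had 898, 778, 864 and 696 in CD24Neg, against 841, 821, 694 and 618 in CD24Mid, at 0.13 (95% interval -0.16 to 0.41, limma adjusted p = 0.402). Scaled to totals it turned to -0.30 (limma adjusted p = 0.0404). Gstt4 and Gsto2 lay under the filter.

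The membrane-bound transferases were abundant in both fractions, and 2 of the 3 were called higher. Mgst2, which can make leukotriene C4, had 3150.2, 3935, 2984 and 3215 in CD24Neg, against 1315, 912, 904 and 834 in CD24Mid, at 1.76 ± 0.15 (SE, limma adjusted p = 4.61e-06). Mgst3 had 5404, 4995, 4352 and 4022 in CD24Neg, against 2332, 1988, 1623 and 1496 in CD24Mid, at 1.35 ± 0.16 (SE, limma adjusted p = 3.24e-05). Neither overlapped between fractions. Mgst1, which detoxifies lipid peroxides, had 3699.7, 3192, 2771 and 2574 in CD24Neg, against 3015, 2428, 2271 and 2064 in CD24Mid, overlapping ranges, at 0.32 (95% interval -0.01 to 0.66, limma adjusted p = 0.0777). It was called higher when CD24Mid library 1 (0.42, limma adjusted p = 0.0228) or CD24Neg library 8 (0.41, limma adjusted p = 0.0432) was left out. For Mgst1 each CD24Neg library was also above the CD24Mid library of the preceding number. Among the members not called, the same held for Ces1c, Gstp3 and Ugt1a9 besides Gstm2. For Sult1a1 each CD24Neg library was below the CD24Mid library of the preceding number. The other members not called were above for some numbers and below for others. The labels name no such pairs, and no paired fit was run. Per kilobase, Mgst1 was the leading transcript of the family in CD24Mid and Mgst2 in CD24Neg, with Mgst1 at 19.7 to 23.8% in CD24Neg libraries, against 37.5 to 39.5% in CD24Mid libraries and Mgst2 at 39.2 to 47.6% in CD24Neg libraries, against 27.98 to 31.6% in CD24Mid libraries.

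**Figure D3:**
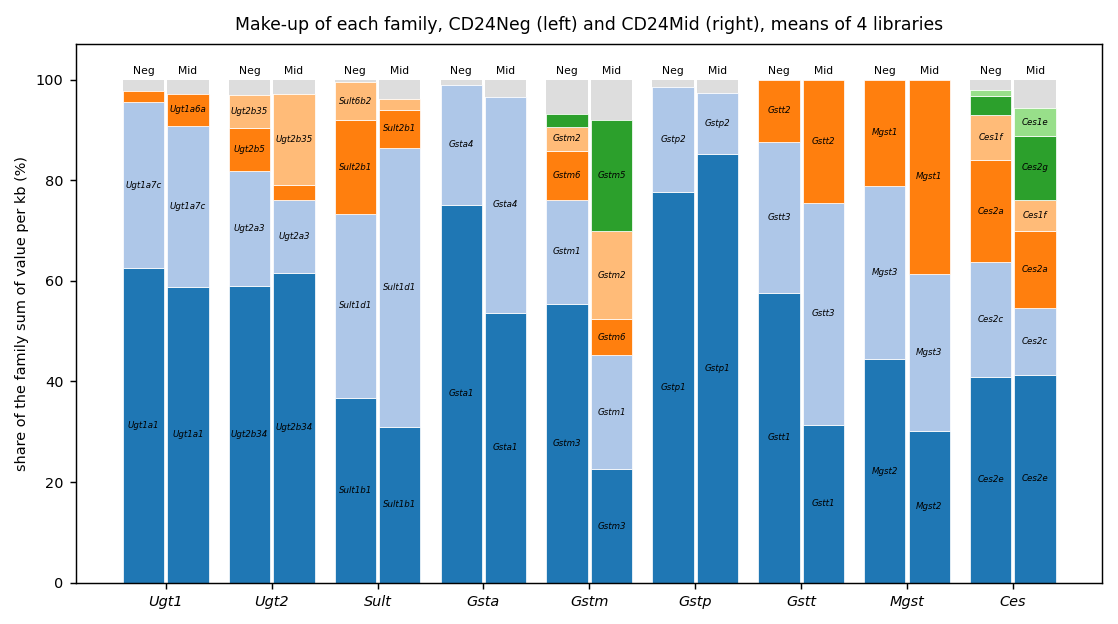
Share of each member in the family sum of value per kilobase (y axis, %), CD24Neg left and CD24Mid right for each of 9 families, means of 4 libraries a fraction; members under 5% in both fractions are pooled in grey. Gstm3 takes 55.3% of the mu class in CD24Neg and 22.6% in CD24Mid, whereas Ces2e takes 41.0% of the carboxylesterases in CD24Neg and 41.3% in CD24Mid.

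The carboxylesterases had 13 members, of which 10 were called higher and 3 were not called. Their sum was 44994 ± 11109 in CD24Neg, against 6767 ± 2184 in CD24Mid (SD, n = 4 each), 6.65 times as high. Ces2e, the most abundant of them, had 19811, 24127, 25919 and 16462 in CD24Neg, against 4948, 2572, 2714 and 2354 in CD24Mid, at 2.82 ± 0.24 (SE, limma adjusted p = 3.92e-06). CD24Mid library 1 was the high one of its fraction, and the fractions did not overlap. Ces2c, an acylglycerol hydrolase of intestine and liver, had 7550.1, 12416, 8872 and 6087 in CD24Neg, against 1178, 596, 653 and 547 in CD24Mid, at 3.57 ± 0.27 (SE, limma adjusted p = 1.92e-06). Ces2a had 6876, 11397, 8198 and 4575 in CD24Neg, against 1262, 825, 754 and 528 in CD24Mid, at 3.20 ± 0.30 (SE, limma adjusted p = 8.10e-06). These 3 Ces2 genes together with Ces1f were the 4 leading carboxylesterase transcripts per kilobase in CD24Neg, where Ces2c stood at 22.7% and Ces2a at 20.3%, against 13.4% and 15.2% in CD24Mid.

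Among the Ces1 genes, whose products hydrolyse drugs and stored triacylglycerol in liver, Ces1f had 2647, 4647, 3427 and 2839 in CD24Neg, against 460.3, 284, 329 and 297 in CD24Mid, at 3.30 ± 0.20 (SE, limma adjusted p = 6.21e-07). Ces1g had 96.03, 719, 308 and 121 in CD24Neg, against 38.2, 46.5, 27.3 and 20.5 in CD24Mid, at 2.81 ± 0.57 (SE, limma adjusted p = 0.00145), with a spread among CD24Neg libraries almost as large as their mean. Ces1e differed least of those called, at 363 to 648 in CD24Neg, against 263 to 391 in CD24Mid and 0.63 ± 0.19 (SE, limma adjusted p = 0.0117); its ranges overlapped, and it was not called when libraries were scaled to totals (0.21, limma adjusted p = 0.293). Ces1d was not called, with 115, 575, 376 and 192 in CD24Neg, against 189.6, 305, 217 and 198 in CD24Mid, at 0.23 (95% interval -0.72 to 1.19, limma adjusted p = 0.643). Without CD24Neg libraries 2 and 8, the lowest pair for this gene, it was called higher at 1.08 (limma adjusted p = 0.00425).

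Ces1c and Ces2f, both close to the filter, were not called either. Ces1c had 36.3, 19.5, 10.3 and 6.91 in CD24Neg, against 7.88, 13.7, 6.48 and 6.12 in CD24Mid, at 0.86 (95% interval -0.34 to 2.05, limma adjusted p = 0.178), and was called higher after quantile normalization (1.42, limma adjusted p = 0.0457). Ces2f had 8.71, 10.1, 10.9 and 14.3 in CD24Neg, against 11.2, 2.52, 3.85 and 4.07 in CD24Mid, at 1.14 (95% interval 0.04 to 2.24, limma adjusted p = 0.0626). Ces2f was called higher without CD24Mid library 1 (1.53, limma adjusted p = 0.0165), after quantile normalization (1.77, limma adjusted p = 0.00903), without the variance trend (limma adjusted p = 0.0308) and by voom (limma adjusted p = 0.0334). The 4 other Ces2 and Ces3 genes were called higher: Ces2b at 2.37 (limma adjusted p = 8.24e-05), Ces2h at 2.43 (limma adjusted p = 0.000135), Ces3a at 1.31 (limma adjusted p = 0.00478) and Ces2g at 0.9995 (limma adjusted p = 0.00242). Ces2h passed the filter through CD24Neg alone, at 24.7 to 38.9 in CD24Neg, against 3.33 to 7.12 in CD24Mid. Ces2g made up 2.98 to 4.53% in CD24Neg libraries, against 11.8 to 13.4% in CD24Mid libraries of the carboxylesterase sum per kilobase. Ces1a, Ces1b and Ces3b lay under the filter. Ces1b had 8.72e-05, 4.41, 0.766 and 1.06 in CD24Neg, against 8.18, 14.5, 8.32 and 5.59 in CD24Mid. Each of its CD24Neg libraries was below each CD24Mid library.

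On chromosome 8 of GRCm38 the carboxylesterase genes form 2 clusters, and the calls ran in blocks along the first. In the order Ces1a, Ces1b, Ces1c, Ces1d, Ces1e, Ces1f and Ces1g, the first pair lay under the filter, the next pair was not called, Ces1e was at 0.63, and the last pair stood at 3.30 and 2.81. In the second cluster, from Ces2a to Ces3b, the log2 fold changes were 3.20, 2.37, 3.57, 2.82, 1.14, 0.9995, 2.43 and 1.31 up to Ces3a, with Ces3b under the filter. A cluster here is a run of candidates with gaps of at most 1 Mb. There were 9 such runs, holding 42 of the 52 members. Whether neighbouring members vary together was not tested.

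Ces1c and Ces2f, given above, reached 10 in 4 libraries and were kept, while Ugt1a2, Ugt1a6b and Ugt2b38 reached it in 3 and were not. The values of Ugt2b38 are given with its family. Ugt1a2 had 18.7, 21.3, 6.75 and 9.56 in CD24Neg, against 9.01e-05, 6.39, 12.6 and 8.59 in CD24Mid. Ugt1a6b had 0.0512, 33.03, 17.9 and 0.524 in CD24Neg, against 4.88, 5.40, 12.2 and 0.121 in CD24Mid. Ugt1a2 and Ugt1a6b share most of their 50-base stretches with genes that were kept.

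Per kilobase, the order of the families' leading transcripts differed between the fractions. In CD24Neg the 5 highest members were Ces2e (7996 per kilobase), Gsta1 (6889.8), Gstp1 (6583), Gsto1 (6038) and Mgst2 (5508). In CD24Mid they were Gstp1 (3589), Gsto1 (3529), Mgst1 (2095), Mgst3 (1695) and Mgst2 (1644). Gsta1 stood at place 2 in CD24Neg and at place 24 in CD24Mid, and Ces2e at place 1 in CD24Neg and at place 7 in CD24Mid. The place of Gsta1 depends on how reads shared with Gm3776 were divided. Lengths are those of the longest protein-coding transcript in GENCODE M21.

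**Figure D4:**
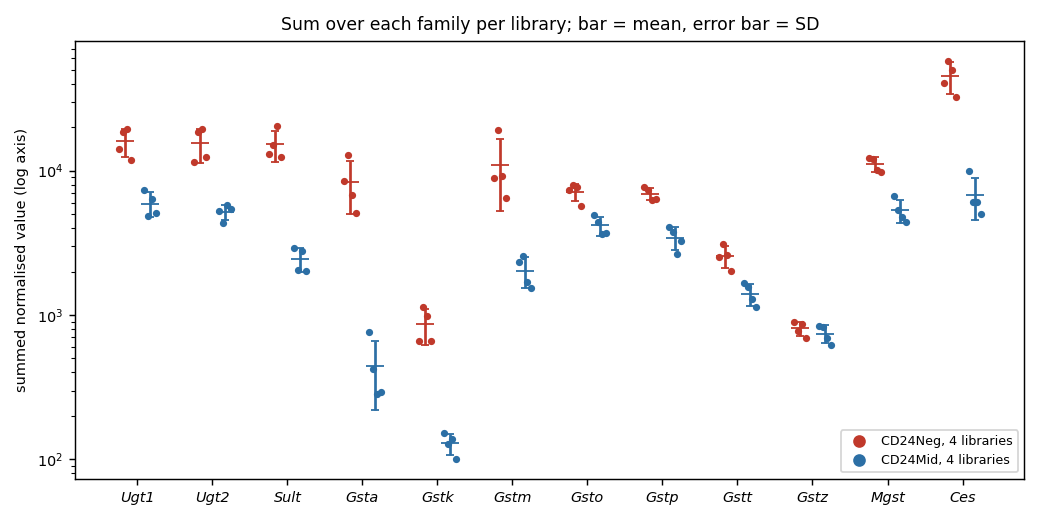
Sum of the normalised values over each family (log axis) in the 4 CD24Neg libraries, left, and the 4 CD24Mid libraries, right; horizontal bars are means and error bars SD. The Gsta sums are 18.8 times as high in CD24Neg, the Ces sums 6.65 times, and the Gstz sums overlap.

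The members also moved together among libraries of 1 fraction. CD24Neg library 4 was the highest of its fraction for 34 of 52 members, 65.4%, against 20.8% of all genes tested. Over the members the median deviation of log2(value + 0.5) from the fraction mean was -0.09, 0.41, 0.03 and -0.37 in CD24Neg libraries 2, 4, 6 and 8. In CD24Mid, library 1 was the highest for 35 members, 67.3%, against 32.7% of all genes. The median deviations there were 0.30, 0.06, -0.12 and -0.34 in libraries 1, 3, 5 and 7. Over all genes tested, these medians lay between -0.03 and 0.04. All 11 alpha and mu class members were highest in CD24Neg library 4.

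Another group of members peaked in CD24Neg library 6: Ces2e, Sult1b1, Sult1d1, Sult2b1, Ugt1a1, Ugt2a3 and Ugt2b34. The ratio of library 4 to library 6 was 0.65 for Sult1d1 and 0.68 for Sult1b1, which lie next to each other on chromosome 5, and 3.79 for Gsta3 and 3.56 for Gstm1. The 10 members highest in CD24Neg library 2 included Gstp1, Gstp3, Gstt2, Gstz1, Mgst1 and Mgst3. The families therefore did not share 1 order of the CD24Neg libraries.

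Marker sums differed between the same libraries. The enterocyte markers summed to 419289, 641483, 758144 and 432544 in CD24Neg, against 28506, 16640.2, 19817 and 22147 in CD24Mid. The goblet cell markers summed to 384020, 504558, 182069 and 214344 in CD24Neg, against 74600.4, 66849.5, 59440 and 47556 in CD24Mid, highest in CD24Neg library 4, and in CD24Mid their order of libraries was that of the members' medians. The sum of the general epithelial markers had that order in CD24Mid too, at 101131, 82835, 80725 and 78584. Of these 7 genes taken singly, only Krt8 had it, at 43664, 33502, 31365 and 30200. The sum of the stem and cycling markers did not have that order. In CD24Mid it was 52997, 69215, 68199 and 75159, lowest in library 1 and highest in library 7. Paneth cell markers were highest in CD24Neg library 4 as well, at 1412, 4131, 1178 and 1759. In CD24Mid the Paneth cell markers summed to 1422, 3318, 1759 and 1547, highest in library 3. The T cell markers summed to 6794, 384, 1098 and 4949 in CD24Neg, against 163, 56.1, 47.97 and 114 in CD24Mid, highest in CD24Neg libraries 2 and 8. The part of these in the members' values was not tested. Leaving out CD24Neg libraries 2 and 8 gave 41 members higher and 2 lower. Leaving out CD24Neg library 4 gave 38 and 1, and leaving out CD24Mid library 1 gave 40 and 1.

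**Figure D5:**
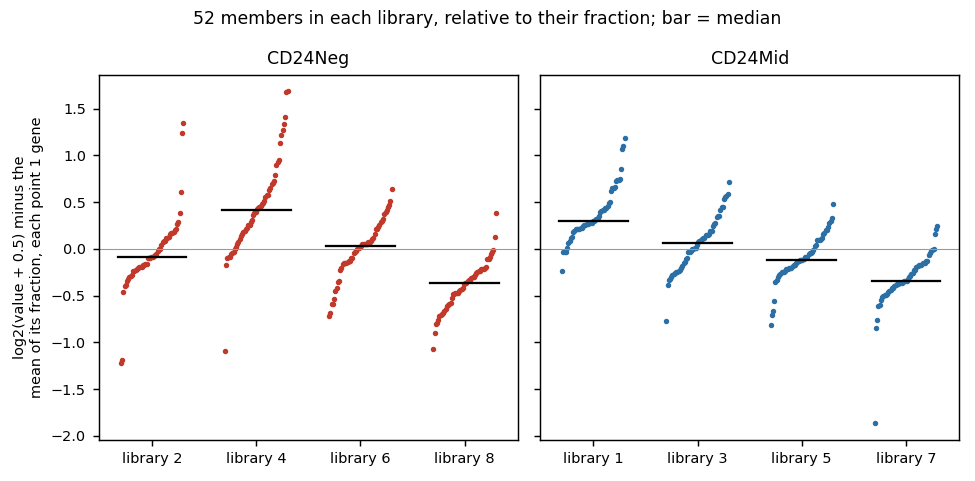
Log2(value + 0.5) of each of the 52 members in each library, minus the gene's mean over its fraction (y axis), CD24Neg libraries left and CD24Mid libraries right; points are genes in order of deviation and bars are medians. Library 4 is the highest by its median in CD24Neg (0.41) and library 1 in CD24Mid (0.30).

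The genes that feed and surround these enzymes were taken as 7 lists, whose counts stand beside the 34% of all genes called higher, 34.3% lower and 68.3% either way. For glucuronidation, 7 of 8 tested genes of UDP-glucuronic acid supply, related carriers and neighbouring steps were called higher and 1 lower. Ugdh, which oxidises UDP-glucose to UDP-glucuronic acid, had 4369, 7337, 6445 and 5090.2 in CD24Neg, against 1089.9, 851, 898 and 1089 in CD24Mid, at 2.54 ± 0.17 (SE, limma adjusted p = 9.03e-07). Slc35d2, a nucleotide sugar transporter, was at 248 to 303 in CD24Neg, against 58.4 to 64.3 in CD24Mid, or 2.14 ± 0.13 (SE, limma adjusted p = 5.78e-07). Gusb, the lysosomal beta-glucuronidase that takes glucuronic acid off again, was the gene called lower, at 244 to 337 in CD24Neg, against 521 to 679 in CD24Mid and -0.99 ± 0.14 (SE, limma adjusted p = 0.000105).

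For sulfation, 6 of 9 tested genes were called higher, 2 lower and 1 was not called. The list holds neighbouring steps such as sulfate removal beside the supply of the donor. Papss2, which makes the sulfate donor PAPS, had 13615, 16698, 21347 and 12034 in CD24Neg, against 1673, 722, 962 and 1259.5 in CD24Mid, at 3.82 ± 0.26 (SE, limma adjusted p = 1.06e-06), or 14.1-fold. The anion exchanger Slc26a6 was 10.7-fold higher, at 3.41 ± 0.25 (SE, limma adjusted p = 1.49e-06). Called lower were Slc35b2, which carries PAPS into the Golgi, at -0.60 ± 0.13 (SE, limma adjusted p = 0.0022), and the Golgi phosphatase Impad1, whose ranges overlapped, at -0.41 ± 0.16 (SE, limma adjusted p = 0.0441). Slc35b3, the second PAPS carrier of the Golgi, was not called at 0.30 (95% interval -0.03 to 0.64, limma adjusted p = 0.0992). Papss1 stood at 0.34 ± 0.10 (SE, limma adjusted p = 0.00947), and at -0.08 (limma adjusted p = 0.483) when scaled to totals.

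For glutathione, 8 of 11 tested genes were called higher and 3 were not called. The largest differences were in genes that break peptides and conjugates down. Dpep1, a brush border dipeptidase that splits cysteinylglycine, had 4655, 5377, 6443 and 5418 in CD24Neg, against 237, 104, 95.9 and 134 in CD24Mid, at 5.34 ± 0.25 (SE, limma adjusted p = 2.44e-07), or 40.6-fold, and Cndp2, a cytosolic dipeptidase, was 12.4-fold higher at 3.63 ± 0.16 (SE, limma adjusted p = 1.94e-07). Of the synthesis genes, the modifier subunit Gclm was at 1.52 ± 0.20 (SE, limma adjusted p = 7.26e-05). The catalytic subunit Gclc at -0.19 (95% interval -0.50 to 0.11, limma adjusted p = 0.23), the synthetase Gss at 0.30 (95% interval -0.05 to 0.64, limma adjusted p = 0.109) and the reductase Gsr at -0.31 (95% interval -0.60 to -0.02, limma adjusted p = 0.0554) were not called. Scaled to totals, Gclc and Gsr were called lower, at -0.62 (limma adjusted p = 0.00302) and -0.74 (limma adjusted p = 0.00123).

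Among 9 tested genes of other conjugating enzymes and related proteins outside the 52, 5 were called higher, 1 lower and 3 were not called. Nat8, an N-acetyltransferase that forms mercapturic acids from cysteine conjugates, was at 537 to 919.8 in CD24Neg, against 19.2 to 57.2 in CD24Mid, 21.7-fold, at 4.44 ± 0.31 (SE, limma adjusted p = 1.28e-06). The arylamine N-acetyltransferase Nat2 was at 1.88 ± 0.13 (SE, limma adjusted p = 1.07e-06). Gstcd was called lower at -1.76 ± 0.17 (SE, limma adjusted p = 8.14e-06). Tpmt, Hpgds and Alox5ap were not called, at -0.22, -0.35 and -0.99. Of 11 tested hydrolases, 7 were called higher, 1 lower and 3 were not called. The soluble epoxide hydrolase Ephx2 was 14.3-fold higher at 3.84 ± 0.22 (SE, limma adjusted p = 4.20e-07), and the hormone-sensitive lipase Lipe was 10.3-fold higher at 3.37 ± 0.17 (SE, limma adjusted p = 2.99e-07). The monoacylglycerol lipase Mgll, with overlapping ranges, was called lower at -1.38 ± 0.55 (SE, limma adjusted p = 0.0457). The microsomal epoxide hydrolase Ephx1, the paraoxonase Pon3 and Bphl were not called, at -0.61, 0.30 and -0.25.

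All 8 tested ATP-driven efflux pumps were called, 6 higher and 2 lower, where 68.3% of all genes were called. Abcc2, the apical pump of glucuronide and glutathione conjugates, had 3833, 5443, 4231 and 3571 in CD24Neg, against 725, 469, 615 and 592 in CD24Mid, at 2.83 ± 0.16 (SE, limma adjusted p = 4.48e-07). Abcc6 was at 2.54 ± 0.14 (SE, limma adjusted p = 4.22e-07). Abcc1, a basolateral pump of glutathione conjugates, was lower, with 79.7, 83.7, 71.6 and 109 in CD24Neg, against 452, 383, 432 and 469.8 in CD24Mid, at -2.34 ± 0.15 (SE, limma adjusted p = 7.95e-07), and Abcc4 was lower at -3.05 ± 0.60 (SE, limma adjusted p = 0.0012). For Abcc1 and Abcc4 every CD24Neg library was below every CD24Mid library.

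Of 17 tested regulators, 10 were called higher, 1 lower and 6 were not called. Nr1i3, the constitutive androstane receptor, had 2628, 2508, 2391 and 2229.9 in CD24Neg, against 516, 292, 247 and 255 in CD24Mid, at 2.96 ± 0.21 (SE, limma adjusted p = 1.32e-06), and Nr1i2, the pregnane X receptor, was at 1.40 ± 0.13 (SE, limma adjusted p = 7.35e-06). Hnf4a was the 1 called lower, at 9098 to 10044 in CD24Neg, against 12890.5 to 13476 in CD24Mid and -0.48 ± 0.09 (SE, limma adjusted p = 0.00127), while the related Hnf4g was higher at 1.92 ± 0.24 (SE, limma adjusted p = 5.27e-05). Nfe2l2, which encodes the antioxidant regulator NRF2, was at 1.20 ± 0.14 (SE, limma adjusted p = 3.60e-05). Among those not called, Ahr, Arnt, Rxrb, Ppara and Cdx2 were between -0.06 and 0.22.

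Scaled to totals, the counts of higher and lower were 5 and 1 for the UDP-glucuronic acid list. The sulfation list had 5 and 2. They were 6 and 2 for glutathione, 4 and 3 for other conjugating enzymes and 5 and 3 for hydrolases. Efflux had 6 and 2, and regulators had 6 and 5. The median log2 fold changes of the lists in the main scaling were 1.11, 0.95, 1.52, 0.47, 0.56, 1.34 and 0.51 in the same order.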

How the data were processed

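Each deposited file gives a signal value per Ensembl gene, an expression estimate scaled between libraries by the authors, per the file headers. Alignment with Bowtie 0.12.8 and build NCBIM37 are named in the submitters' processing notes. For the estimator's version, annotation and scaling method, the entry is: not given in the sources used here. Whole reads could not be recovered, so the count test that the design foresaw was replaced by its branch for values without counts. Values were centred on the median ratio, genes at 10 or more in at least 4 libraries were kept, and limma 3.58.1 in R 4.3.3 fitted log2(value + 0.5) by lmFit and eBayes (trend, robust, no covariates). Adjusted p-values are Benjamini-Hochberg over 12906 genes and were held against 0.05. The pseudocount makes changes of low genes look smaller. The fit was tested on simulated data. In that simulation few genes changed and all shared the same spread setting, so it did not try the centring where most genes differ.

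Symbols, lengths and coding sequences come from GENCODE M21 and gene order and promoters from RefSeq, both of GRCm38 and not the files' build, so genes were matched by identifier or symbol only; 21223 of 23318 identifiers had a symbol, and all 68 candidates matched a RefSeq gene. The members and lists were chosen with earlier results of these data known. In each family, up to 5 called members by size of change and the highest member are named. Every member called against its family or not called is named too. Other members and Papss1, Gclm, Hnf4g, Nfe2l2, Ugt2b38, Ces1b and Sult4a1 were named after their values were seen. Of each list, up to 2 genes a direction by adjusted p are named, and those not called. 1 regulator that was not called is counted but not reported here by name. Alternatives were no centring, quantile normalization, totals that leave out the 20 most abundant genes, pseudocounts 0.1 and 1, 2 other filters, limma without trend, voom on estimated reads, a test against a fold change of 1.5, and fits without each library or without CD24Neg libraries 2 and 8. Nothing states that replicates came from separate animals, so p-values measure the spread between these libraries.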

Additional observations from a re-analysis of the deposited data

Results flagged for a closer look

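In 10 of 104 groups of 4 libraries (52 members in each fraction), 1 library stood far from the other 3 by its gap relative to the range; chance alone flags about 1 in 20 groups, and genes of a library are not independent. CD24Neg library 4 stood high for Gsta2 at 64.57 (next 14.9), Gsta3 at 183.9 (next 66.9), Gstm1 at 4982 (next 1641) and Ugt1a9 at 524.6 (next 193). CD24Neg library 6 stood high for Sult1b1 at 8607 (next 5850) and Sult2b1 at 2631 (next 2191). CD24Mid library 1 stood high for Ces2c at 1178 (next 653), Ces2e at 4948 (next 2714), Mgst2 at 1315 (next 912) and Sult2b1 at 211.5 (next 125). No library stood apart on the low side. All but Ugt1a9 were called higher in CD24Neg, and these calls held with each library left out in turn.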

How the results depend on the processing

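No paired analysis was possible because the CD24Neg and CD24Mid libraries share no replicate numbers and the labels name no pairs. Library numbers alternate between the fractions, but a fit by neighbouring numbers would infer pairs from order and was not run. T cell marker sums were highest in CD24Neg libraries 2 and 8 and in their neighbours, CD24Mid libraries 1 and 7. Stem and cycling sums had the same order in neighbours, lowest in libraries 2 and 1 and highest in libraries 8 and 7. Paneth cell sums were highest in libraries 4 and 3, and B and plasma cell sums were lowest in libraries 6 and 5. Myeloid marker sums were highest in libraries 8 and 7, with libraries 2 and 1 next. Enterocyte, goblet and enteroendocrine cell sums did not run alike in neighbours. Whether neighbours share a source was not tested. Any spread that neighbours share stays in the error of the unpaired fit. Of the 39 members called, 32 were called in all 19 alternatives, and of the 13 not called, 4 were called in none (Gstp3, Gstt2, Sult1c2 and Ugt1a6a). Testing against a 1.5-fold change altered the calls of 7 members, 5 changed after quantile normalization, and 4 changed when scaled on totals that leave out the 20 most abundant genes. By the scaling on totals, 2842 genes were called higher in place of 4386, 3 members were called lower, Gstz1 turned to -0.30 (0.13 by the main scaling), and the Gstz sum ratio turned to -0.30 on the log2 scale. By the same scaling, the log2 ratio of sums was 0.996 for Ugt1, 1.13 for Ugt2, 0.35 for Gsto, 0.59 for Gstp, 0.44 for Gstt, 0.64 for Mgst and 1.45 for all candidates. This scaling shifted the median over all genes by -0.42. The test against a fold change of 1.5 gave 2360 genes higher, 2430 lower and 0 members lower (by the main test 1 was lower), and Ces1e, Ces2g, Ces3a, Gstm5, Gsto1, Gstp1 and Gstt3 lost their calls. Without CD24Neg libraries 2 and 8, 2 members were lower; the cause was not tested. Leaving out 1 library gave 4078 to 4394 genes higher, 4143 to 4324 lower, 38 to 40 members higher and 1 to 2 lower, the second being Sult1a1 without CD24Neg library 2. Depth limits Gsta2, Sult1a1, Ces1c, Ces2f and Ugt1a5 most, whose values are few reads per library. Shared sequence most limits the values of the Ugt1a members, Gsta1, Gsta2, Gstp1, Gstp2, Ces2c and Ugt2b5.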
